A study of Sus scrofa with 72 samples.

Results

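De novo fatty acid synthesis and elongation was followed through 8 genes chosen by name, with earlier results of these data known. SLC25A1, ACLY, ACACA, ACACB and ME1 lie on the way from citrate to malonyl-CoA and NADPH, and ELOVL6, ELOVL7 and HSD17B12 belong to chain elongation. They are 8 of the 13664 genes that the array's platform annotation names, and 18 of its 47845 probe sets carry their symbols. A gene is described by the probe set of its symbol with the highest mean level, and its other probe sets served as a check.

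The profiles were measured on porcine Snowball arrays in synovial mesenchymal stem cells (SMSCs), stromal cells of the joint lining that can become fat cells in culture. The cells came from the adipose synovium (FP), on the inside of the infrapatellar fat pad, and from the fibrous synovium (FS) of the joint capsule, in pigs of the breeds Angeln Saddleback (AS) and German Landrace (DL). Adipogenic induction medium (AIM), a commercial StemPro adipogenesis kit, was given for 1, 4, 7 or 14 days. Complete culture medium (CCM), a high-glucose DMEM with fetal bovine serum and antibiotics, was used before induction on day 0 and alongside AIM on the same days. Each of the 36 combinations of breed, tissue, medium and day had 2 cultures, which gave 72 arrays. Cells of several male piglets had been pooled for each breed and tissue, so the p-values reflect how far cultures grown from 4 shared pools differed and say nothing of the spread among animals, and a breed or tissue difference cannot be told apart from a difference between pools. The arrays read the RNA of whole cultures, in which fewer cells of a type and less RNA per cell cannot be told apart.

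Fat cells store energy as triglyceride, and they can build part of its fatty acids from glucose. Citrate is carried out of the mitochondrion and cleaved to acetyl-CoA, acetyl-CoA carboxylase makes malonyl-CoA from it, and fatty acid synthase joins these units to palmitate with NADPH as the reductant. Elongases of the endoplasmic reticulum then lengthen the chain with further malonyl-CoA. In pigs, adipose tissue is the main site of this synthesis.

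Levels are given as log2 intensities after RMA (Robust Multiarray Average), which summarises the probes of a probe set, and they are set side by side only within a probe set. The mean of 69 background control probe sets lay between 3.13 and 3.67 on the arrays used, and a level under that mean on its own array is called below background. A set of 4 arrays stood apart from the other arrays of their tissue, medium and day and were left out, which kept 68 arrays. Their median correlations with those arrays, over deviations from the mean of each probe set, were -0.498 for AS FP AIM day 7 replicate 2, -0.53 for AS FP CCM day 7 replicate 2, 0.34 for DL FP CCM day 0 replicate 2 and 0.225 for DL FS CCM day 1 replicate 2, against 0.453 or more on each of the arrays kept. The array labelled AS FP AIM day 7 replicate 2 had levels of 8.35 for ACLY, 6.81 for ACACA and 9.42 for HSD17B12, which fall within the range of the CCM arrays of that day. The array labelled AS FP CCM day 7 replicate 2 had 10.62 for ACLY, 9.46 for ACACA and 12.01 for HSD17B12, within the range of the AIM arrays. After this, 8, 8, 7 and 8 AIM arrays and 7, 8, 7 and 8 CCM arrays remained for days 1, 4, 7 and 14, with 7 arrays for day 0. Differences were tested with limma over 18335 probe sets that passed a filter on low and constant values, and a probe set passed at a Benjamini-Hochberg adjusted p under 0.01. Of the 8 genes 7 entered this test, and ELOVL6 did not because its level was under the array median on nearly every array.

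In AIM, 6 of the 7 tested genes were higher than in CCM on days 4, 7 and 14, and 3 of them, ACLY, ACACA and HSD17B12, were higher on day 1 already. ACACB was lower in AIM on days 4 and 7. Of all tested probe sets, 28.0% passed on day 1 (10.4% higher, 17.6% lower), 49.1% on day 4 (19.6% higher, 29.5% lower), 45.0% on day 7 (17.7% higher, 27.4% lower) and 48.5% on day 14 (20.9% higher, 27.7% lower). The median log2 difference of the 7 genes was 0.20, 1.55, 2.07 and 2.13 on days 1, 4, 7 and 14, beside -0.03, -0.02, -0.05 and -0.01 over all tested probe sets. Since the genes were chosen with earlier results of these data known, their counts and medians are only a description beside these shares. The AIM arrays lay above all CCM arrays of the day for 3, 5, 6 and 6 of the 7 genes. Of all tested probe sets 13.4%, 26.8%, 27.2% and 24.7% had media that did not overlap on those days, with AIM above in 4.83%, 9.84%, 10.7% and 10.3%.

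**Figure D1:**
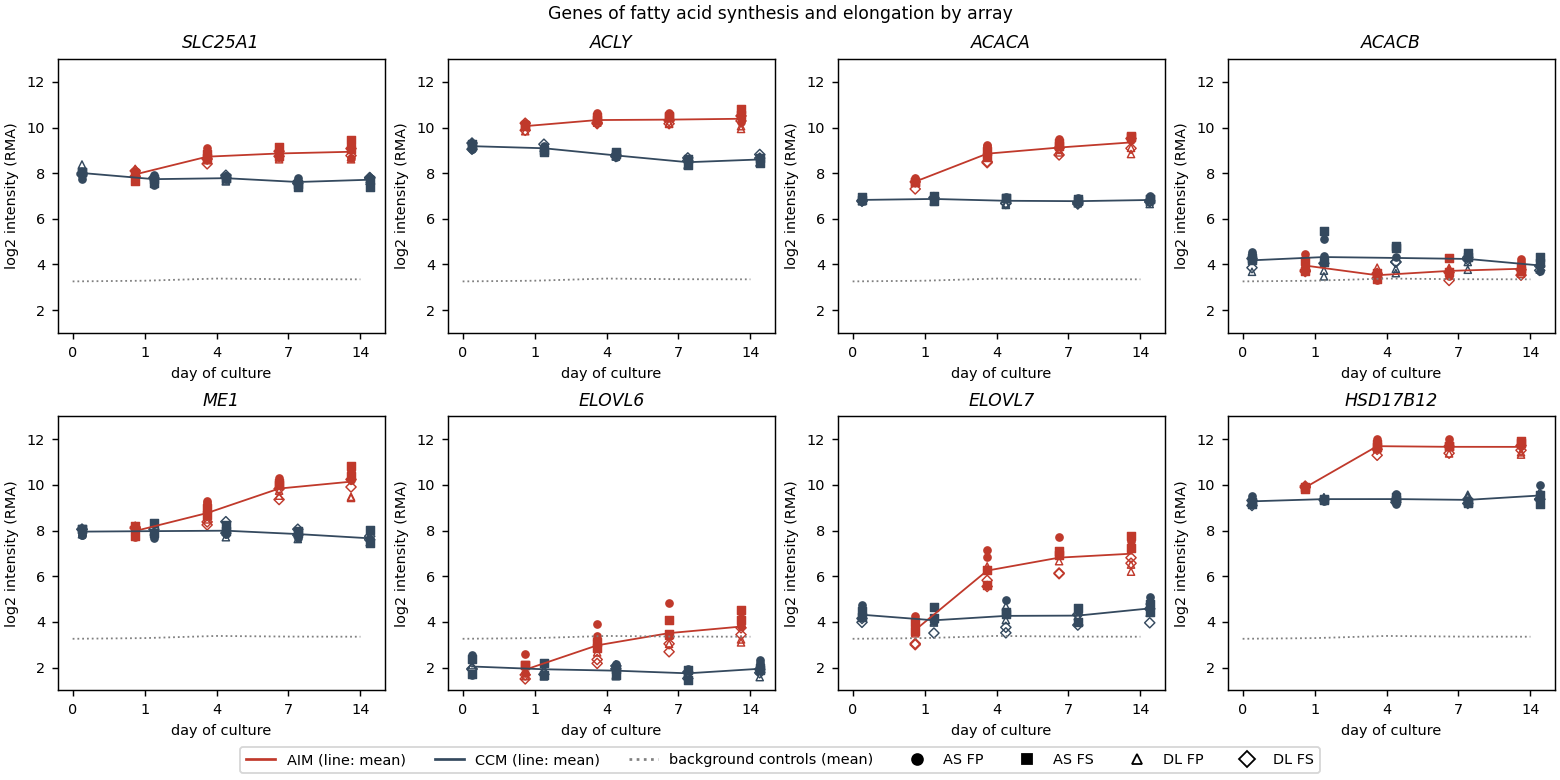
Log2 level of the 8 genes on each array (vertical axis, one panel a gene) by day of culture (horizontal axis, days evenly spaced), for AIM and CCM on the 68 arrays used, with the mean of each medium as a line, the background controls dotted and a symbol for each pool of breed and tissue. HSD17B12, ACACA and ACLY separate by medium from day 1, SLC25A1 and ELOVL7 from day 4 and ME1 from day 7, and ACACB overlaps on every day.

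SLC25A1, the mitochondrial carrier that exports citrate to the cytosol, was higher in AIM from day 4. Its levels in AIM had medians of 7.95, 8.66, 8.75 and 8.91 on days 1, 4, 7 and 14, with single arrays at 7.64 to 8.19, 8.41 to 9.12, 8.61 to 9.15 and 8.61 to 9.45. The CCM medians were 7.80, 7.79, 7.63 and 7.77, with arrays at 7.48 to 7.93, 7.64 to 7.91, 7.38 to 7.81 and 7.41 to 7.81, and on day 0 the arrays ran from 7.75 over a median of 8.00 to 8.38. The media overlapped on day 1 and were separate on days 4, 7 and 14. The AIM minus CCM difference was 0.20 (SE 0.09, limma adjusted p = 0.07) on day 1, 0.94 (SE 0.08, adjusted p = 1.9e-12) on day 4, 1.26 (SE 0.09, adjusted p = 1.9e-14) on day 7 and 1.23 (SE 0.08, adjusted p = 1.4e-15) on day 14, the last a 2.34-fold higher level. Within the 4 pools it was 0.66 to 1.19 on day 4 and 0.96 to 1.70 on day 14. A dim SLC25A1 probe set outside the tested set did not pass in the fit without the filter, with 0.19, 0.28 and 0.34 on days 4, 7 and 14.

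ACLY, the ATP-citrate lyase that releases acetyl-CoA from citrate, had the highest difference of the 7 tested genes on day 1. The AIM arrays had medians of 10.10, 10.27, 10.30 and 10.40 on days 1, 4, 7 and 14, with single arrays at 9.84 to 10.19, 10.17 to 10.62, 10.16 to 10.64 and 9.94 to 10.81. CCM arrays had medians of 9.11, 8.75, 8.48 and 8.64, with arrays at 8.93 to 9.27, 8.72 to 8.91, 8.34 to 8.67 and 8.43 to 8.82, and day 0 ran from 9.04 over 9.18 to 9.36. The media did not overlap on any of the 4 days. The difference was 0.94 (SE 0.07, limma adjusted p = 1.2e-13) on day 1, 1.55 (SE 0.07, adjusted p = 1.2e-21) on day 4, 1.90 (SE 0.07, adjusted p = 1.2e-22) on day 7 and 1.78 (SE 0.07, adjusted p = 1.9e-23) on day 14, which are 1.92, 2.93, 3.74 and 3.44-fold. All 4 pools passed alone on each day, with 0.76 to 1.11 on day 1 and 1.53 to 2.14 on day 14. The other ACLY probe set gave 0.90, 1.67, 1.91 and 1.85 and also passed on each day.

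ACACA, the acetyl-CoA carboxylase that makes malonyl-CoA in the cytosol for synthesis, was higher in AIM on all 4 days. Medians of the AIM arrays were 7.62, 8.89, 9.10 and 9.50 on days 1, 4, 7 and 14, with single arrays at 7.31 to 7.81, 8.46 to 9.24, 8.80 to 9.50 and 8.84 to 9.63. CCM arrays had medians of 6.88, 6.80, 6.76 and 6.83 and none was above 7.02, while day 0 ran from 6.77 over 6.80 to 6.97. No AIM array fell to the level of a CCM array. The difference was 0.75 (SE 0.07, limma adjusted p = 1.6e-11) on day 1, 2.06 (SE 0.06, adjusted p = 6.7e-26) on day 4, 2.38 (SE 0.07, adjusted p = 4.0e-26) on day 7 and 2.52 (SE 0.06, adjusted p = 2.3e-28) on day 14, or 1.68, 4.18, 5.20 and 5.75-fold. It passed in 3 of the 4 pools alone on day 1, at 0.52 to 0.90, and in all 4 later, at 2.27 to 2.74 on day 14. The 3 other ACACA probe sets gave 2.55, 2.13 and 1.33 on day 14, all passing, and the dimmest of them did not pass on day 1 (0.31, adjusted p = 0.029).

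ACACB, the carboxylase at the outer mitochondrial membrane whose malonyl-CoA restrains fatty acid oxidation, went the other way and at a low level. In AIM the medians were 3.92, 3.55, 3.69 and 3.74 on days 1, 4, 7 and 14, and CCM arrays had 4.09, 4.22, 4.31 and 3.96. On day 4 the AIM arrays ran from 3.31 to 3.86 and the CCM arrays from 3.62 to 4.81, so the media overlapped there as on the other days. Of the 68 arrays 65 were above background, with 2 of the others in AIM on day 4 and 1 on day 7. ACACB lay above the array median on 34 of the 72 arrays. The filter asked for this on at least 8 arrays, so its levels in CCM alone could have let it in. The AIM minus CCM difference passed on day 4 (-0.76, SE 0.13, limma adjusted p = 4.9e-06) and day 7 (-0.58, SE 0.15, adjusted p = 8.8e-04), which put CCM 1.69 and 1.5-fold above AIM. It was -0.34 (SE 0.14, adjusted p = 0.056) on day 1, with -0.56 to -0.11 over the 8 culture lines left out in turn and a pass without AS FS replicate 2 (-0.56, adjusted p = 6.2e-04), and -0.14 (SE 0.13, adjusted p = 0.37) on day 14, where 2 SE on either side span -0.41 to 0.12. On day 4 the pools lay at -1.28 and -1.17 in AS FS and AS FP, which passed alone, and at -0.60 and 0.02 in DL FS and DL FP, which did not. On day 7 none of the 4 pools passed alone. The call of that day was lost without AS FP replicate 1 (-0.45), DL FP replicate 2 (-0.53) or DL FS replicate 1 (-0.53). It was also lost with all 72 arrays as labelled (-0.38, limma adjusted p = 0.032). AS FP kept 1 array in each medium on day 7, so leaving out AS FP replicate 1 took that pool out of the comparison.

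ME1, the cytosolic malic enzyme that regenerates pyruvate and yields NADPH, did not pass on day 1, and its media separated on day 7, against day 4 or earlier for the other 5 tested genes that rose. On AIM arrays the medians were 7.98, 8.79, 9.83 and 10.22 on days 1, 4, 7 and 14, with single arrays at 7.73 to 8.19, 8.25 to 9.28, 9.36 to 10.32 and 9.43 to 10.85. CCM arrays had medians of 7.94, 7.95, 7.84 and 7.62, with arrays at 7.68 to 8.35, 7.71 to 8.39, 7.63 to 8.06 and 7.45 to 8.04, and day 0 ran from 7.79 over 8.05 to 8.07. The media overlapped on days 1 and 4 and were separate on days 7 and 14. The difference was -0.01 (SE 0.11, limma adjusted p = 0.98) on day 1, where 2 SE on either side span -0.22 to 0.21, and 0.78 (SE 0.10, adjusted p = 1.9e-08) on day 4, 2.07 (SE 0.11, adjusted p = 3.0e-18) on day 7 and 2.48 (SE 0.10, adjusted p = 3.9e-22) on day 14, the last 5.59-fold. On day 4 the pools ranged from 0.18 to 1.33 and 3 of 4 passed alone, and on day 14 all 4 passed at 1.81 to 2.89.

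ELOVL6, the elongase that takes palmitate to stearate, was measured at the edge of detection. Its AIM arrays had medians of 1.81, 2.99, 3.39 and 3.77 on days 1, 4, 7 and 14, with the highest array at 2.61, 3.91, 4.83 and 4.50. CCM arrays had medians of 1.93, 1.86, 1.80 and 1.90 and day 0 had 1.95, and no CCM array of any day was above background. Above background were 0 of 8 AIM arrays on day 1, 1 of 8 on day 4, 4 of 7 on day 7 and 5 of 8 on day 14. With the CCM arrays set at the background of their own array, the mean AIM level over the 4 pools was at least 1.31-fold higher on day 7 and 1.40-fold on day 14. No bound can be given on days 1 and 4, and no error was attached to it. The bound rests on AS, with AIM means of 4.13 on day 7 and 4.21 on day 14. The DL arrays in AIM averaged 3.04 on day 7, under the mean background of 3.26 on DL CCM arrays, and 3.38 beside 3.32 on day 14. In the fit without the filter, over 47722 probe sets of which 22.8%, 19.5% and 22.4% passed, the limma adjusted p was 2.0e-08 on day 4, 6.6e-13 on day 7 and 5.5e-14 on day 14, and it was 0.98 on day 1.

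ELOVL7, an elongase of long-chain acyl-CoAs in human cells, had the highest difference of the 7 tested genes on day 7. Its levels in AIM had medians of 3.71, 6.29, 6.91 and 7.02 on days 1, 4, 7 and 14, with single arrays at 3.00 to 4.24, 5.55 to 7.15, 6.11 to 7.73 and 6.2 to 7.76. CCM arrays had medians of 4.04, 4.35, 4.32 and 4.55 and none was above 5.11, while day 0 ran from 3.98 over 4.28 to 4.75. The media overlapped on day 1, when 2 of the 8 AIM arrays were below background, and were separate after that. The difference was -0.36 (SE 0.14, limma adjusted p = 0.046) on day 1, 1.98 (SE 0.13, adjusted p = 9.0e-16) on day 4, 2.63 (SE 0.15, adjusted p = 9.6e-18) on day 7 and 2.39 (SE 0.13, adjusted p = 4.3e-18) on day 14, or 3.96, 6.19 and 5.26-fold on the last 3 days. The pools ranged from 1.56 to 2.35 on day 4 and from 2.04 to 3.25 on day 7. The other tested ELOVL7 probe set gave -0.22 on day 1 and 1.91, 3.20 and 2.98 later. It was dimmer, with a mean of 4.00, and lay above the array median on 23 arrays, against 56 for the probe set described. The filter asked for this on at least 8 arrays, so high levels in AIM alone could have let it in. Its differences are therefore not an independent check. A further 4 dim ELOVL7 probe sets with means below background did not pass.

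HSD17B12, the 3-ketoacyl-CoA reductase of the elongation cycle, was higher in AIM on all 4 days, with like medians in AIM on days 4, 7 and 14. AIM arrays had medians of 9.90, 11.72, 11.71 and 11.70 on days 1, 4, 7 and 14, with single arrays at 9.82 to 9.95, 11.30 to 12.03, 11.38 to 12.02 and 11.33 to 11.91. CCM arrays had medians of 9.35, 9.36, 9.32 and 9.53 with arrays at 9.31 to 9.45, 9.18 to 9.60, 9.19 to 9.57 and 9.18 to 10.01, and day 0 ran from 9.10 over 9.27 to 9.50. The media were separate on all 4 days. The difference was 0.51 (SE 0.08, limma adjusted p = 2.0e-06) on day 1, 2.32 (SE 0.08, adjusted p = 4.9e-25) on day 4, 2.37 (SE 0.08, adjusted p = 1.0e-23) on day 7 and 2.13 (SE 0.08, adjusted p = 6.5e-24) on day 14, or 1.43, 4.99, 5.18 and 4.38-fold. On day 1 the 4 pools lay between 0.46 and 0.56 and none passed alone. With all 72 arrays as labelled the day 1 call was lost (0.53, SE 0.22, limma adjusted p = 0.07), at a like difference and a larger error. All groups share an estimate of the spread, so the AS FP arrays of day 7 enter that error. Another probe set, which the platform assigns to DNAJC1 and the study's files to HSD17B12, gave 0.43, 2.14, 2.13 and 2.02 and passed on each day.

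**Figure D2:**
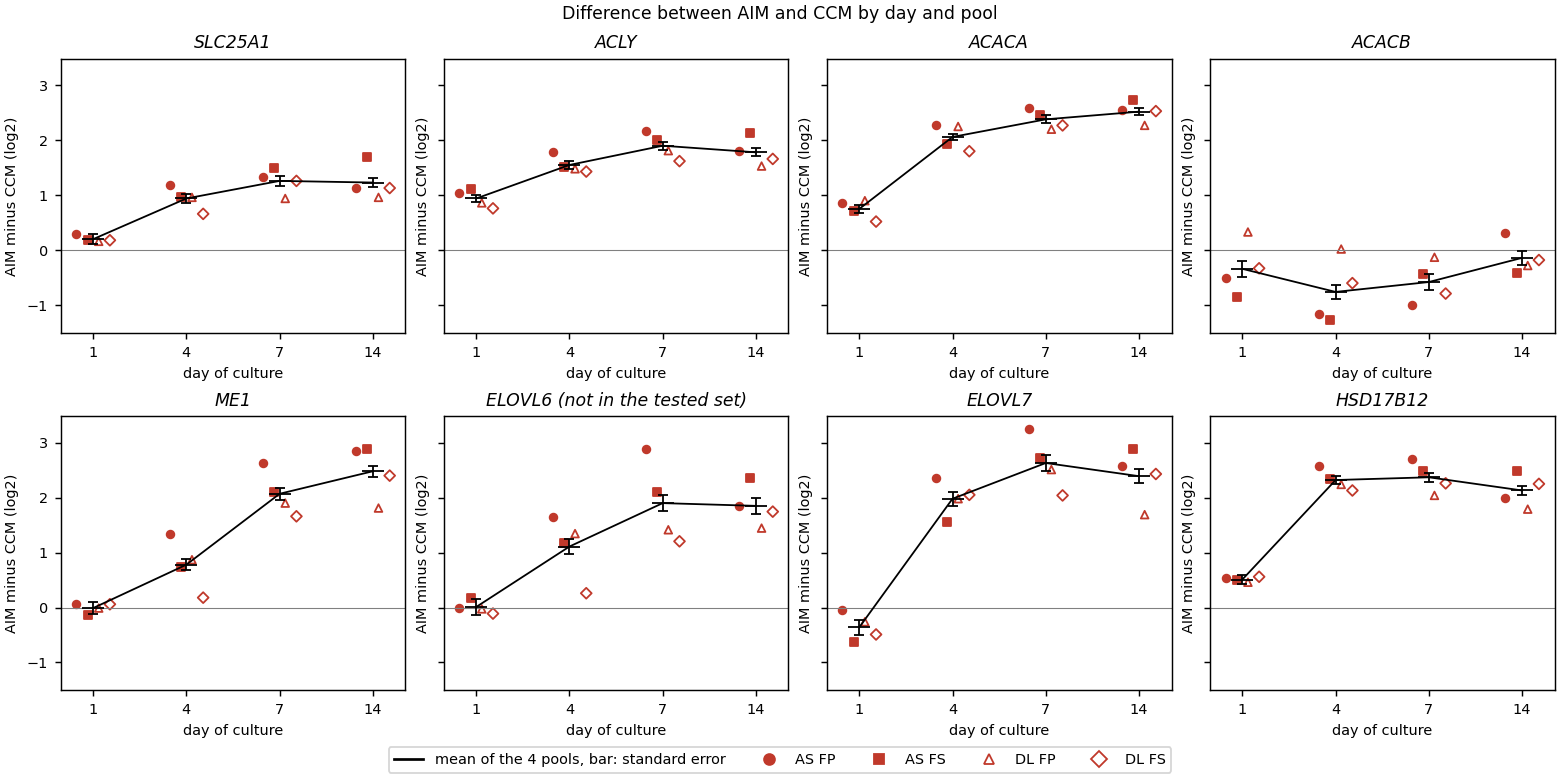
AIM minus CCM difference in log2 level of each gene (vertical axis) on days 1, 4, 7 and 14 (horizontal axis, evenly spaced), with the fitted difference and its error and the 4 pools of breed and tissue as points. The fitted differences of 6 tested genes lie above 0 from day 4, up to 2.63 for ELOVL7 on day 7, and those of ACACB lie below 0.

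Fat cell markers were also higher in AIM than in CCM. On CCM arrays the median of the marker mean was 4.30 on day 0 and 7.10 on day 14. No tested gene of synthesis passed as higher in a CCM step between successive days. Day 14 was not tested against day 0 in CCM, for the markers or for these genes. The mean level of ADIPOQ, FABP4, PLIN1, LPL and CD36, all 5 of which were on the array and tested, ran on AIM arrays from 4.48 to 6.5 on day 1, 10.29 to 11.79 on day 4, 10.98 to 12.05 on day 7 and 11.35 to 11.88 on day 14. On CCM arrays it ran from 3.57 to 5.22, 3.68 to 6.64, 4.43 to 6.92 and 6.13 to 9.25, and on day 0 from 3.66 to 5.11, where LPL and CD36 were below background. Of the 5 markers 2 were higher in AIM on day 1 and 5 on days 4, 7 and 14, with median differences of 1.13, 6.43, 6.30 and 4.15. The mean of the mesenchymal markers CD44, ITGB1, THY1, ENG and NT5E ran from 7.34 to 7.86 on AIM arrays and from 7.98 to 8.35 on CCM arrays on day 14. Among them NT5E averaged below background in both media on that day and was not tested. Of the 2 leukocyte markers on the array PTPRC averaged below background in every medium and day, and CD14 was above it, with a mean of 5.97 over the arrays. Of the 3 endothelial markers KDR averaged below background throughout and PECAM1 (5.19) and CDH5 (4.58) above it, and of the 2 muscle markers MYOD1 below and DES (5.70) above. On day 14 the mean of the leukocyte markers ran from 4.05 to 5.00 on AIM arrays and from 3.86 to 5.31 on CCM arrays, and that of the endothelial markers from 3.39 to 3.94 on AIM arrays and from 4.24 to 4.80 on CCM arrays. The part of cell composition in the differences was not tested.

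The steps from day to day in AIM were tested for each gene. Between day 0 and day 1, where 38.0% of tested probe sets passed (16.8% higher, 21.2% lower), ACLY (0.85, SE 0.07, limma adjusted p = 6.8e-13), ACACA (0.80, SE 0.07, adjusted p = 1.1e-12) and HSD17B12 (0.59, SE 0.08, adjusted p = 1.0e-07) were higher on day 1. ELOVL7 stood lower after the first day of AIM than before it (-0.67, SE 0.14, adjusted p = 1.5e-04), but not past the threshold by its other tested probe set (-0.47, adjusted p = 0.027) or with all 72 arrays as labelled (-0.61, adjusted p = 0.098). The dimmest ACACA probe set gave 0.15 (adjusted p = 0.3) for this step.

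Between days 1 and 4 in AIM, where 48.7% passed (20.4% higher, 28.4% lower), 6 genes rose and ACACB fell. The day 4 minus day 1 difference was 2.60 for ELOVL7 (limma adjusted p = 2.9e-19), 1.81 for HSD17B12 (adjusted p = 6.6e-22), 1.23 for ACACA (adjusted p = 3.0e-19), 0.79 for ME1 (adjusted p = 1.4e-08), 0.77 for SLC25A1 (adjusted p = 2.7e-10) and 0.27 for ACLY (adjusted p = 5.7e-04). ACACB fell by 0.42 (SE 0.13, adjusted p = 0.0059). This ACACB call was lost when any of 6 of the 8 culture lines was left out, with all 72 arrays (-0.42, adjusted p = 0.013), without the filter (adjusted p = 0.011), with centred arrays (-0.37, adjusted p = 0.016) and with values raised to background (-0.37, adjusted p = 0.013). The ACLY call was lost with all 72 arrays (adjusted p = 0.23) and without DL FP replicate 1 (0.23) or DL FS replicate 1 (0.22).

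Between days 4 and 7 in AIM only 5.7% of probe sets passed (3.36% higher, 2.34% lower), and 3 of the 7 genes were higher on day 7. ME1 rose by 1.13 (SE 0.11, limma adjusted p = 1.1e-09), ELOVL7 by 0.68 (SE 0.14, adjusted p = 9.5e-04) and ACACA by 0.32 (SE 0.07, adjusted p = 0.001). The ACACA call was lost without AS FS replicate 2 (0.30), DL FP replicate 1 (0.32) or DL FP replicate 2 (0.31) and on its dimmest probe set (0.21, adjusted p = 0.29), and the ELOVL7 call without DL FP replicate 1 (0.61) or DL FS replicate 1 (0.65). With all 72 arrays as labelled none of the 3 passed, at 0.80 (adjusted p = 0.026) for ME1, 0.25 for ELOVL7 and -0.02 for ACACA. Between days 7 and 14, where 6.0% passed (4.18% higher, 1.82% lower), none of the 7 did, and the ACACA and ME1 differences were 0.18 (adjusted p = 0.074) and 0.24 (adjusted p = 0.14).

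In cells kept in CCM 2 of the steps passed among the 7 genes. SLC25A1 stood lower after the first day than before it (-0.31, SE 0.09, limma adjusted p = 0.0071), where 31.8% of tested probe sets passed (16.1% higher, 15.6% lower), and 6 of the 8 lines ended that call when left out, as did all 72 arrays (-0.21), no filter and centring. ACLY was lower on day 4 than on day 1 (-0.34, SE 0.07, adjusted p = 9.3e-05), where 37.1% passed, and with all 72 arrays it did not pass (-0.31, adjusted p = 0.21). No gene of the 7 passed between days 4 and 7 (0.191% of probe sets passed, 0.0545% lower on day 7) or between days 7 and 14 (1.75%), and ACLY was -0.30 (adjusted p = 0.032) in the first of these steps.

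The change of the AIM minus CCM difference from day to day was tested directly. From day 1 to day 4, where 31.2% of tested probe sets passed (13.3% higher, 17.9% lower), it grew for 6 of 7 genes, from 0.61 (SE 0.10, limma adjusted p = 2.0e-06) for ACLY to 2.34 (SE 0.19, adjusted p = 1.4e-12) for ELOVL7, and for ACACB it was -0.42 (adjusted p = 0.082). From day 4 to day 7, where 2.37% passed, it grew for ME1 alone among the 7 (1.3, SE 0.15, adjusted p = 4.1e-07). From day 7 to day 14, where 2.33% passed, it did not pass for any of them. With all 72 arrays as labelled the day 4 to day 7 growth of ME1 was 0.65 (adjusted p = 0.32).

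Breed differences passed in AIM on days 7 and 14, each with the higher level in AS. No gene of the 7 passed on day 0 (0.894% of tested probe sets passed) or in AIM on day 1 (2.3%) or day 4 (4.75%). On day 7, where 8.84% passed and 2.19% were higher in AS, 2 genes passed, and on day 14, where 4.07% passed and 1.59% were higher in AS, 4 genes did.

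ACACA had levels of 9.50, 9.34 and 9.20 on the 3 AS arrays and 8.91, 9.02, 8.80 and 9.10 on the 4 DL arrays in AIM on day 7, and the breeds did not overlap. The AS minus DL difference was 0.43 (SE 0.10, limma adjusted p = 0.0025), or 1.35-fold. On day 14 the arrays had 9.56, 9.47, 9.63 and 9.57 in AS and 8.84, 9.11, 9.09 and 9.52 in DL, where 1 DL array reached into the AS range, and the difference was 0.42 (SE 0.09, adjusted p = 0.0017). On day 4 it was 0.34 (adjusted p = 0.011). Of the 3 other ACACA probe sets 1 passed between the breeds on day 7 (0.47, adjusted p = 0.0084) and 2 did not (0.37, adjusted p = 0.03, and 0.35, adjusted p = 0.15). On day 14 none of the 3 passed, at 0.37 (adjusted p = 0.026), 0.23 (adjusted p = 0.21) and 0.28 (adjusted p = 0.29).

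ELOVL7 had 7.73, 7.11 and 6.91 in AS and 7.04, 6.66, 6.11 and 6.14 in DL on day 7, with an overlap. The difference was 0.87 (SE 0.21, limma adjusted p = 0.0036), or 1.83-fold. On day 14 the AS arrays had 7.53, 7.28, 7.76 and 7.23 and the DL arrays 6.51, 6.2, 6.57 and 6.81, without overlap, and the difference was 0.93 (SE 0.19, adjusted p = 0.0011), or 1.90-fold. The other tested ELOVL7 probe set did not pass between the breeds, with 0.29 (adjusted p = 0.51) on day 7 and 0.68 (adjusted p = 0.068) on day 14, and the mean of both gave 0.58 (adjusted p = 0.042) on day 7.

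ME1 had 10.62, 10.21, 10.85 and 10.41 on the AS arrays and 9.48, 9.43, 9.91 and 10.24 on the DL arrays in AIM on day 14, and the highest DL array lay just above the lowest AS array. The difference was 0.76 (SE 0.14, limma adjusted p = 4.6e-04), or 1.69-fold, after 0.53 (adjusted p = 0.014) on day 4 and 0.57 (adjusted p = 0.012) on day 7. ACLY had 10.64, 10.26, 10.81 and 10.57 in AS and 10.06, 9.94, 10.29 and 10.51 in DL on day 14, with an overlap, and the difference was 0.37 (SE 0.09, adjusted p = 0.0085), or 1.29-fold. SLC25A1 and HSD17B12 did not pass, with day 14 differences of 0.29 (SE 0.12, adjusted p = 0.13) and 0.34 (SE 0.11, adjusted p = 0.042).

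For ELOVL6 the AS arrays in AIM on day 7 had 4.83, 4.09 and 3.47 and the DL arrays 3.04, 3.39, 2.69 and 3.04, without overlap. Only 1 of those DL arrays was above background. Without the filter the limma adjusted p was 2.2e-04 on day 7, where 2.82% of probe sets passed and 0.788% were higher in AS, and 0.011 on day 14, where 1.3% passed.

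ACACB passed between the breeds in CCM on days 1 and 4, and in AIM it did not pass on any day. In CCM on day 1, where 1.17% of tested probe sets passed, the AS arrays had 5.11, 4.35, 5.47 and 4.09 and the DL arrays 3.48, 3.73 and 4.05, without overlap, and AS was higher by 0.93 (SE 0.21, limma adjusted p = 0.0077). On day 4, where 3.1% passed, the AS arrays had 4.81, 4.32, 4.79 and 4.72 and the DL arrays 3.81, 3.62, 4.12 and 4.10, and AS was higher by 0.75 (SE 0.19, adjusted p = 0.01, under the threshold before rounding). In AIM on day 4 the difference was -0.18 (SE 0.19, adjusted p = 0.61). The breed difference of the AIM minus CCM difference on day 4 was -0.93 (SE 0.26, adjusted p = 0.068) and did not pass.

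These breed calls rest on few cultures. The share of all probe sets whose breeds or tissues did not overlap was not computed, so a lack of overlap is only a description here. In AIM on day 7 ACLY (10.48 to 10.64 in AS, 10.16 to 10.30 in DL) and ME1 (10.00 to 10.32 in AS, 9.36 to 9.83 in DL) did not overlap either, and neither passed. Leaving out 1 of the 8 culture lines ended the ACACA and ELOVL7 calls of day 7 for 5 lines each (differences of 0.32 to 0.50 and 0.78 to 0.97), and on day 14 the ACLY call for 5 lines (0.28 to 0.47), those of ACACA and ELOVL7 for 4 each (0.31 to 0.53 and 0.79 to 1.06) and that of ME1 without AS FP replicate 1 (0.65) or DL FS replicate 1 (0.67). Without AS FP replicate 1 the breed comparison of day 7 held FS alone, with 0.32 for ACACA and 0.88 for ELOVL7. With all 72 arrays as labelled, none of the 4 passed on day 14 at unchanged differences, and on day 7 the differences were -0.24 for ACACA and 0.01 for ELOVL7. The ACACB calls in CCM were lost for 6 of the 8 lines on either day (0.58 to 1.27 on day 1, lowest without AS FS replicate 1, and 0.63 to 0.87 on day 4) and without the filter (adjusted p = 0.017 and 0.02), and that of day 4 also with all 72 arrays, with centring and with trended variances. Without the filter the ACLY call of day 14 (adjusted p = 0.017) was lost as well. The mean level of the 5 fat cell markers in AIM ran from 11.44 to 12.05 in AS and from 10.98 to 11.38 in DL on day 7, and from 11.61 to 11.88 in AS and from 11.35 to 11.83 in DL on day 14. Its part in the breed differences was not tested.

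Whether the response to AIM differed between the breeds was tested as the difference of the AIM minus CCM differences. None of the 7 genes passed on any day, where 0.0164%, 0.48%, 0.704% and 0.387% of probe sets did on days 1, 4, 7 and 14. The value nearest to the threshold was that of ME1 on day 14, where the response was higher in AS by 0.76 (SE 0.20, limma adjusted p = 0.047). ACACA and ELOVL7 had 0.24 (SE 0.13, adjusted p = 0.48) and 0.67 (SE 0.27, adjusted p = 0.28) on that day.

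**Figure D3:**
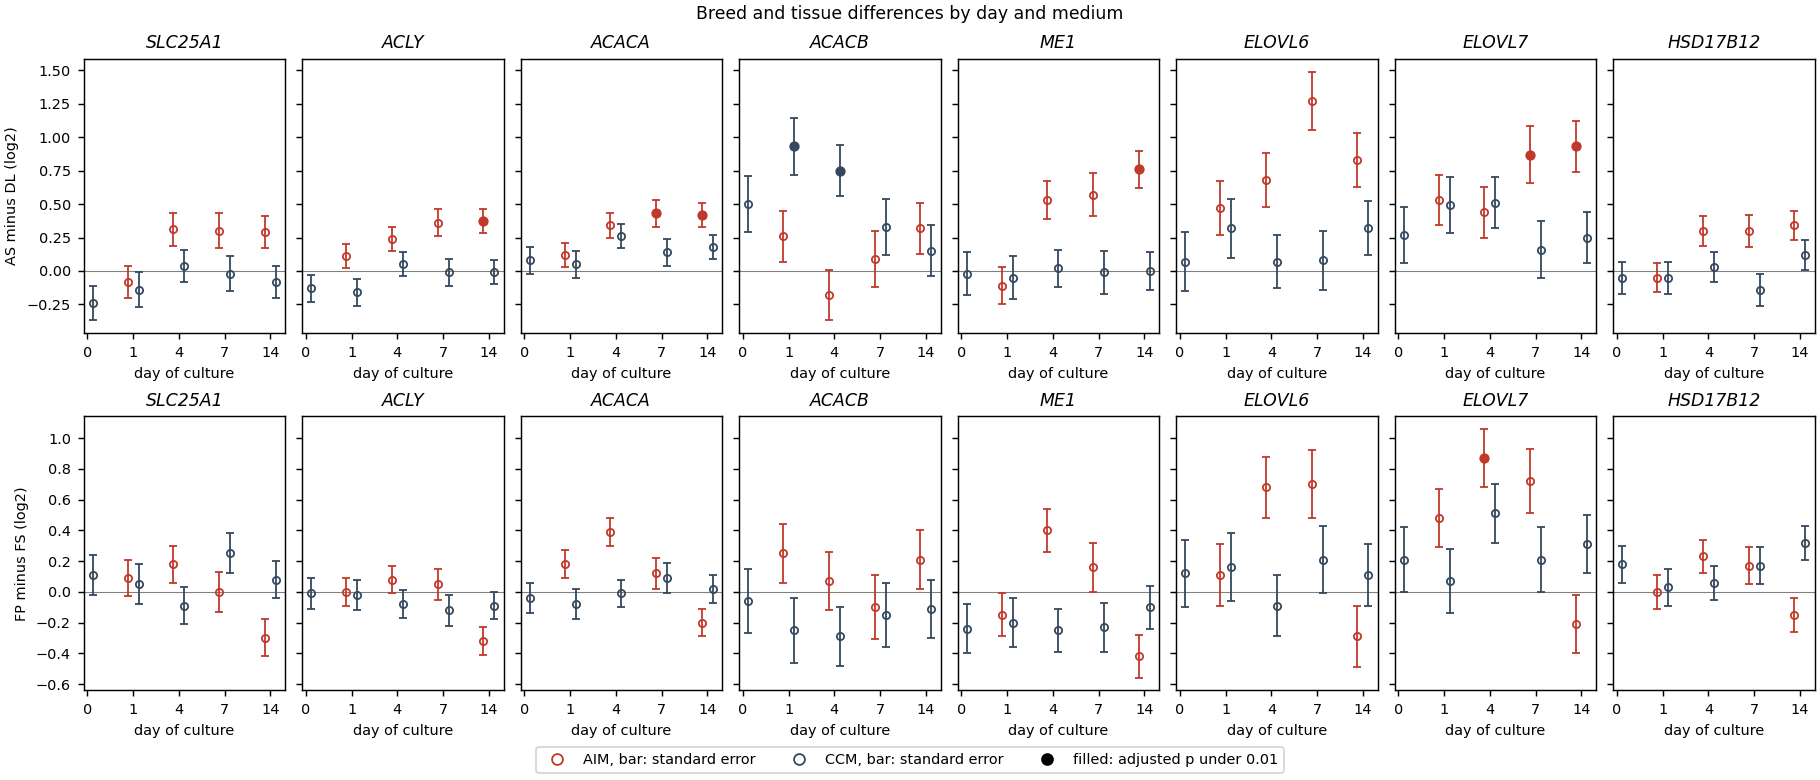
Differences in log2 level between the breeds (AS minus DL) and between the tissues (FP minus FS) for each gene (vertical axis), in AIM and CCM by day (horizontal axis, evenly spaced), with bars for the standard error and filled points at an adjusted p under 0.01. Filled points in AIM are ACACA and ELOVL7 on day 7 and ACLY, ACACA, ME1 and ELOVL7 on day 14 for the breeds, and ELOVL7 on day 4 for the tissues. In CCM they are ACACB on days 1 and 4 for the breeds, and ELOVL6 was not in the tested set and is drawn unfilled.

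Between the tissues ELOVL7 was the 1 gene of the 7 that passed, on 1 day. In AIM on day 4, where 0.731% of tested probe sets passed and 0.398% were higher in FP, its levels were 7.15, 6.85, 6.30 and 6.43 in FP and 6.27, 5.6, 5.55 and 5.82 in FS, without overlap. The FP minus FS difference was 0.87 (SE 0.19, limma adjusted p = 0.0083), or 1.83-fold, and it was 0.72 (SE 0.21, adjusted p = 0.11) on day 7 and -0.21 (SE 0.19, adjusted p = 0.68) on day 14. The call was lost when any of 7 of the 8 lines was left out (0.70 to 1.04), with all 72 arrays as labelled (0.87, adjusted p = 0.68) and without the filter (adjusted p = 0.019). The mean of the fat cell markers on these arrays ran from 10.95 to 11.79 in FP and from 10.29 to 11.38 in FS, and its part was not tested.

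No other gene of the 7 passed between FP and FS in AIM on days 1, 7 and 14 (0.305%, 0.322% and 0.584% of probe sets passed), on day 0 (0.409%) or in CCM on days 1, 4, 7 and 14 (0.175%, 0.464%, 0.196% and 0.518%). ACACA was nearest, with 0.39 (SE 0.09, limma adjusted p = 0.014) in AIM on day 4. On day 14 the FP minus FS differences of ACLY and ME1 were -0.32 (SE 0.09, adjusted p = 0.072) and -0.42 (SE 0.14, adjusted p = 0.14). The difference of the response to AIM between the tissues passed for none of the 7 genes on any day, where 0.0%, 0.0327%, 0.0273% and 0.0927% of probe sets did.

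As a description of the spread, medium and day together took 97.6% of the sum of squares of HSD17B12 over the 68 arrays, 97.3% of ACACA, 96.1% of ACLY, 91.5% of ME1, 89.6% of ELOVL7, 89.0% of SLC25A1 and 38.3% of ACACB. Breed, counted with its interactions with medium and day, added 31.7% for ACACB and at most 4.28% for the other 6 tested genes. The cultures of a group differed by 19.0% of the sum of squares for ACACB and by at most 4.19% for the others. ELOVL6, mostly below background, had 78.7% from medium and day and 10.7% added by breed with the same interactions.

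The members were also set against each other over the 36 group means, which share arrays, pools and days, so the correlations are descriptions. ACACA and HSD17B12 were the most alike (Pearson r = 0.982), followed by ACACA and SLC25A1 (0.946), HSD17B12 and SLC25A1 (0.943) and ELOVL6 and ELOVL7 (0.942), and the least alike pair apart from ACACB was ACLY and ELOVL7 (0.685). ACACB correlated negatively with all of them, from -0.622 with HSD17B12 to -0.42 with ME1. Among the other tested genes the pattern of ACLY was most like those of ACAT2 (0.968), CYB5B (0.962) and IMPAD1 (0.961), and that of ACACA most like PNPLA2 (0.99), EBP (0.987) and ELOVL5 (0.986). ME1 was most like BTC (0.977), MLXIPL (0.962) and AGPAT1 (0.958), and ELOVL7 most like NNAT (0.97), CEBPA (0.968) and SERINC2 (0.965). SLC25A1 was most like RNF217 (0.971), ADAMTS4 (0.97) and LONP2 (0.965), and ELOVL6 most like SLC22A3 (0.966), GPD1 (0.964) and BTC (0.961). HSD17B12 was most like the probe set assigned to DNAJC1 (0.998), ADIPOR2 (0.991) and TMEM120B (0.989), and ACACB, with lower values, most like HDHD2 (0.849), LOC100513671 (0.838) and ADD2 (0.833).

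Of 64 other genes of the pathway and its regulation, 45 were on the array under their symbol and 30 were tested. In AIM against CCM 7, 18, 20 and 19 of the 30 were higher on days 1, 4, 7 and 14, and 3, 6, 4 and 5 were lower, with the shares of all tested probe sets as given above. These lists too were chosen with earlier results of these data known.

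The fatty acid synthase FASN was higher in AIM by 1.09 (SE 0.19, limma adjusted p = 7.8e-06) on day 4, 1.43 (SE 0.22, adjusted p = 5.6e-07) on day 7 and 1.29 (SE 0.19, adjusted p = 4.4e-07) on day 14, and by 0.56 (SE 0.21, adjusted p = 0.033) on day 1, which did not pass. The other tested FASN probe set had 1.06, 1.95, 2.33 and 2.13 and passed on all 4 days. Together with the mitochondrial synthesis genes, 4 of 5 tested genes were higher and 1 lower on day 4 (median 0.48), and 4 were higher and none lower on day 14 (median 0.67).

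Among the genes of acetyl-CoA and citrate supply, 3 of 4 were higher on day 4 (median 1.46) and 4 of 4 on day 14 (median 1.2). ACSS2, which makes acetyl-CoA from acetate, was higher by 1.01, 2.41, 2.71 and 2.66 on days 1, 4, 7 and 14, and citrate synthase CS by 0.61, 0.55 and 0.49 on days 4, 7 and 14. Among the NADPH genes, 3 of 4 were higher and 1 lower on days 4 and 14 (medians 1.02 and 1.13). PGD of the pentose phosphate pathway was higher by 0.31, 1.03, 1.35 and 1.09. The lower gene was the mitochondrial malic enzyme ME3, named after its values were seen, at -1.13, -1.36, -1.53 and -1.26 beside the higher ME1 of days 4, 7 and 14.

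In the rest of the elongation cycle 1 of 3 tested genes was higher and 1 lower on days 4 and 14 (medians 0.32 and 0.10). ELOVL5, the elongase of polyunsaturated acyl-CoAs, was higher by 0.37, 1.85, 2.14 and 1.96 on days 1, 4, 7 and 14. ELOVL4, an elongase of very long chains named after its values were seen, was lower in AIM, with log2 differences of -1.65, -1.80 and -1.29 on days 4, 7 and 14. Of the 2 tested desaturases SCD, which makes oleate from stearate, was higher by 1.24 on day 1, 4.33 (SE 0.08, limma adjusted p = 8.7e-32) on day 4, 4.85 on day 7 and 4.80 (SE 0.08, adjusted p = 2.2e-33) on day 14, a greater difference than that of any of the 7 tested genes on each day.

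Of 11 tested regulators 6 were higher and 3 lower on days 4 and 14 (medians 0.62 and 1.13). SREBF1, a transcription factor of lipogenic genes, was higher by 1.19, 1.63 and 1.43 on days 4, 7 and 14 and did not pass on day 1 (0.49, limma adjusted p = 0.012). MLXIPL, which encodes the carbohydrate-responsive factor ChREBP, was higher by 1.01, 1.38 and 1.83, and PPARG, the leading transcription factor of fat cell formation, by 3.49, 3.23 and 2.41 on the same days. MLYCD, which removes malonyl-CoA, was higher on day 7 (0.41, adjusted p = 0.0075) and did not pass on day 4 (0.25) or day 14 (0.27).

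**Figure D4:**
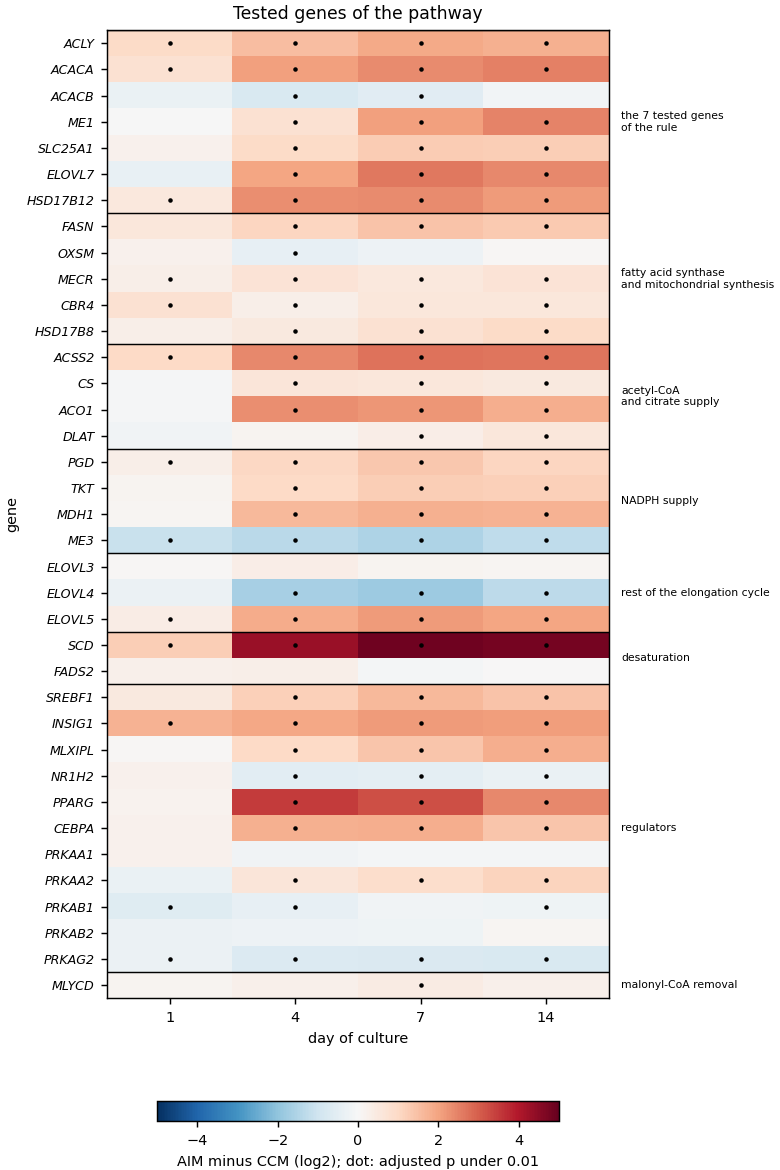
AIM minus CCM difference in log2 level (colour scale) on days 1, 4, 7 and 14 (columns) for the 7 tested members and the 30 tested other genes of the pathway (rows, in blocks by list), with a dot where the adjusted p was under 0.01. SCD has the strongest colour, 4.33 to 4.85 from day 4, and ACACB, ME3 and ELOVL4 are among the rows below 0.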

How the data were processed

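Total RNA of 72 cultures was hybridised to Affymetrix porcine Snowball arrays scanned with GCOS 1.1.1. The authors deposited log2 intensities of 47845 probe sets, background-corrected, normalised and summarised by RMA in Expression Console; no other column was used. Groups came from the sample titles. Platform symbols named 26426 probe sets, of which 446 names were updated, and 21419 had none. All 8 members were named, each through the probe set of highest mean; other pathway genes were given as counts by list, with 18 of them open to be named. The members and lists were chosen with earlier results of these data known.

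Probe sets with an SD over the 72 arrays above 0.25 and a value above the array median on at least 8 arrays were tested (18335, of which 11664 carried a symbol, for 7527 genes). The model in limma 3.58.1 (R 4.3.3, statmod 1.5.0) held the 36 group means with the 8 culture lines as a random block (correlation 0.0258) and moderated variances (eBayes). It used 68 arrays, and 4 groups kept 1 array, whose spread was taken from the other groups. Comparisons were averages of the 4 pools, adjusted by Benjamini-Hochberg within a comparison. SE is the standard error of the fitted log2 difference. Tables and figures were made with Python 3.11.15, pandas 2.3.3, numpy 2.4.6 and matplotlib 3.10.9. Whether same-numbered cultures of a pool deviate together was checked over 113 pairs of groups: the replicate differences had a median correlation of 0.032, with 23 pairs over 0.1, and 0.023 between pools, so the number was not taken to pair cultures of different pools; within a pool it names the culture line of the random block, and the labels do not say that a line was carried across days and media. In simulated data for the day 4 comparison of 18335 probe sets, 38.8%, 94% and 100% of changes of 0.5, 1 and 2 were recovered, and 1.27% of calls were false. Only 67, 67 and 66 probe sets were changed there, on equal group means with independent normal noise. In the real comparison 49.1% passed, so these rates need not hold for it. Alternatives were all 72 arrays, no filter and a stricter one (58 arrays), centring, quantile normalisation, no block and a fixed replicate block, trended robust variances, values raised to background, other probe sets of a gene, their mean, an adjusted p of 0.05, and leaving out each culture line. Where replicate 1 held the only array of a group, leaving it out dropped that pool from the comparison. This concerned AS FP on day 7, DL FP on day 0 and DL FS in CCM on day 1. All groups share an estimate of the spread, so with all 72 arrays the AS FP arrays of day 7 enter the error of every day. The number of arrays limits the precision.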

Additional observations from a re-analysis of the deposited data

Results flagged for a closer look

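The AIM minus CCM difference of several genes was not the same on successive days by limma's test of the change itself. From day 1 to day 4 it grew by 0.61 for ACLY, 1.32 for ACACA (SE 0.09, adjusted p = 1.3e-14), 0.78 for ME1 (SE 0.15, adjusted p = 3.4e-05), 0.74 for SLC25A1 (SE 0.12, adjusted p = 4.3e-06), 2.34 for ELOVL7 and 1.81 for HSD17B12 (SE 0.11, adjusted p = 3.4e-16). From day 4 to day 7 it grew for ME1 by 1.3. With all 72 arrays as labelled, the ACLY and ME1 changes from day 1 to day 4 no longer passed, at 0.58 (adjusted p = 0.093) and 0.74 (adjusted p = 0.074).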

How the results depend on the processing

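Over 60 single-gene differences and the alternatives tried, 1065 recomputed values kept direction and side of the threshold, 144 fell below it, 2 passed it and 19 changed sign. The counts of the 7 genes passing in AIM against CCM were the same without the replicate block and with it fixed (3, 7, 7 and 6 on days 1, 4, 7 and 14). Leaving out 1 culture line gave 3 to 4, 7 to 7, 6 to 7 and 6 to 6 for them. It gave 5 to 7 in AIM from day 1 to 4, 1 to 3 from day 4 to 7, and in CCM 0 to 1 from day 0 to 1. Between the breeds it gave 0 to 1, 0 to 2 and 0 to 4 in AIM on days 4, 7 and 14 and 0 to 1 in CCM on days 1 and 4, for their response to AIM on day 14 0 to 1, and between the tissues 0 to 1 on day 4. With all 72 arrays as labelled 2 genes passed in AIM from day 0 to 1 and 0 from day 4 to 7. It also gave 0 in CCM from day 0 to 1 and 1 to 4, for the change from day 4 to 7, for the breeds in AIM on days 7 and 14 and in CCM on day 4, and for the tissues on day 4. Without the filter 0 passed in CCM from day 0 to 1, for the breeds in CCM on days 1 and 4 and for the tissues on day 4. The stricter filter, which left out low members, gave 1 for the breeds in AIM on day 4 and 0 for those in CCM and for the tissues. Centring gave 0 in CCM from day 0 to 1 and for the breeds in CCM on day 4, 4 for the breeds on day 7 and 2 for the tissues. Quantile normalisation gave 4 and 2 for the last of these, and the trended variances 4 and 2 with 2 on day 4 and 0 in CCM on day 4. The mean over probe sets gave 2 for the change from day 4 to 7. An adjusted p of 0.05 gave 1 in CCM from day 4 to 7, 3 for that change, 2 and 4 for the breeds on days 4 and 7, 2 for the tissues and 1 for the breeds' response on day 14. The day 1 difference of ME1 was 0.04 with all 72 arrays, 0.05 centred and 0.05 after quantile normalisation, and with all 72 arrays ACACA was -0.02 from day 4 to 7 and -0.24 between the breeds on day 7. Dim ELOVL7 probe sets below background changed sign in AIM against CCM on day 1 (0.05, 0.15 and 0.06) and 4 (-0.09), in AIM from day 0 to 1 (0.24 and 0.06) and 1 to 4 (-0.04), in the change from day 1 to 4 (-0.14), between the breeds on days 7 (-0.05) and 14 (-0.23) and between the tissues on day 4 (-0.05 and -0.13). The dim SLC25A1 probe set did so in CCM from day 0 to 1 (0.08) and in the change from day 1 to 4 (-0.01). The causes were not tested. ACACB and ELOVL6 lie near background, which limits how far their differences can be read.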

Other observations

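A few regulators outside the genes open to be named were seen to move and were looked at after their values were known. INSIG1, the sterol-sensing partner that retains SREBP in the endoplasmic reticulum, was higher in AIM on day 1 already, by 1.75 (SE 0.11, limma adjusted p = 6.1e-16), and by 1.94, 2.12 and 2.10 on days 4, 7 and 14. PRKAG2 and PRKAB1, regulatory subunits of the AMP-activated kinase, were lower on day 1, at -0.28 (adjusted p = 0.0064) and -0.62 (adjusted p = 1.9e-08), and on day 14, at -0.76 (adjusted p = 7.6e-11) and -0.23 (adjusted p = 0.0054). Of the 11 tested regulators 1 was higher and 2 lower on day 1, so the other tested subunits PRKAA1, PRKAA2 and PRKAB2 did not pass then. Their later values are not given here, and the study lists PRKAA2 among transcripts that rose during adipogenesis.

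Markers of other cell types gave these counts for AIM against CCM on day 14. Of the tested markers, 1 of 1 leukocyte marker (CD14, 0.96) was higher, and 1 of 2 endothelial and 2 of 3 cartilage markers were lower. Of 4 mesenchymal markers 1 was lower, and the 1 muscle marker did not pass. Of all tested probe sets 20.9% were higher and 27.7% lower on that day. On days 4 and 7, 3 of 4 mesenchymal markers were lower, with median differences of -0.43 and -0.42. Of all tested probe sets 29.5% and 27.4% were lower on those days.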
